A study of Sus scrofa with 30 samples.

Results

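The cluster of miR-424, miR-450, miR-503 and miR-542 is a group of microRNA (miRNA) hairpins that lie next to each other on the X chromosome and are transcribed together. Its members were taken as every Sus scrofa miRNA (ssc-miRNA) of the count table that is numbered as ssc-miR-424, ssc-miR-450, ssc-miR-503 or ssc-miR-542. This rule found 10 of 411 ssc-miRNAs: ssc-miR-424-5p, ssc-miR-424-3p, ssc-miR-450a, ssc-miR-450b-5p, ssc-miR-450b-3p, ssc-miR-450c-5p, ssc-miR-450c-3p, ssc-miR-503, ssc-miR-542-5p and ssc-miR-542-3p. They were followed in plasma of 3 male Göttingen minipigs, a small laboratory pig, of about 4 months of age. All 3 received 2.2 Gy of cobalt-60 gamma rays over the whole body (total body irradiation, TBI), a lethal-range dose for this breed. Per the study, none of these 3 animals survived. Plasma was drawn under isoflurane from each animal at 10 time points, which gave 30 small RNA libraries: 7 days (C7) and 1 day (C1) before TBI, 6 hours after it (0d), and then on 7 later days (1d, 3d and so on up to 20d). The groups compared are therefore draws from the same animals: the pre-TBI draws at C7 and C1, the Early phase of 0d, 1d, 3d and 7d, the Mid phase of 10d and 14d, the Late phase with 17d alone, and the late regression phase (LR) with 20d alone. The minipigs were the control arm of a drug study, so all were given 5% dextrose under the skin on days 1 and 8, and antibiotics were given by mouth once their neutrophils were low. No unirradiated or surviving animals were analysed here, so time, repeated bleeding, dextrose, antibiotics, TBI and decline before death cannot be told apart.

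A miRNA hairpin is cut into a 5p and a 3p strand, and the strand that is loaded into the silencing complex finds its target mRNAs through its seed, the bases near its 5′ end. miR-424-5p belongs to the large miR-15 and miR-16 seed group, which holds back cyclins and other drivers of the cell cycle, and miR-503 is counted with the same group. The cluster is best known from differentiating monocytes and muscle cells and from endothelium, and miR-542-3p is known to target survivin, an inhibitor of cell death. In RefSeq's gene table for Sscrofa11.1, which is not the build of the files, MIR450B, MIR450A, MIR450C and MIR542 follow each other on chromosome X between HPRT1 and PLAC1, and these 4 of the 6 hairpins were matched by symbol. The seeds below, of 7 bases each and all in capitals, are those the study's own target lists print for the human names. They are shown because they separate the members into targeting groups: the seed of miR-16 is the one that miR-424-5p is known to carry, and those of miR-450a and miR-542-3p are unrelated to it.
miR-16-5p: AGCAGCA
miR-450a-5p: UUUGCGA
miR-542-3p: GUGACAG

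The depth of a library is its total count over the 411 ssc-miRNAs. Of the 30 libraries, 24 held 24341 to 550316 counts (median 240612). The other 6, all of minipig 3 from 3d to 20d, held 0 to 17 counts and not a single count of a member, and they were left out. What remained was 6 pre-TBI libraries (24341 to 423325 counts), 10 at Early (172339 to 524084), 4 at Mid (35762 to 103083), 2 at Late (29159 and 63441) and 2 at LR (401408 and 550316). Mid, Late and LR thus rest on minipigs 1 and 2, and the Late libraries are among the shallowest. Of 16 marker rows for erythrocytes, platelets, lymphocytes, haematopoietic cells, hepatocytes and muscle, each was detected in every phase, and edgeR's adjusted test called 0 of them in any phase against pre-TBI (11 calls by unadjusted p over the 4 phases). The 3 platelet marker rows were ssc-miR-191 and both arms of ssc-miR-126. Their summed level was 10564 to 20675 CPM (counts scaled to a common library total) before TBI, 11010 to 74920 at Early, and 2090 and 5842 at Late. The 3 erythrocyte markers, which also rise with lysis of red cells, summed to 8977 to 88288 CPM before TBI and to 8359 and 10193 at Late.

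Plasma carried 2 members of the cluster in quantity and the other 8 as traces. The members held 44079 counts, 0.737% of all counts, with 0.319% in the library of minipig 1 at 10d and 1.34% in that of minipig 2 at 10d as the extremes. ssc-miR-424-3p (21798 counts) and ssc-miR-503 (17447 counts) accounted for 89.0% of them. Mature miRNAs are of nearly equal length, so CPM were set side by side without a length correction. All levels are CPM with trimmed mean of M values (TMM) scaling, or log2 of it with a prior count of 2.

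The median level over the 24 libraries was 2851 CPM for ssc-miR-424-3p and 2349 CPM for ssc-miR-503. It was 52.6 CPM for ssc-miR-424-5p, the arm usually described as the guide strand, so the 3p arm stood 54.2 times above the 5p arm. ssc-miR-503 lay above each of the 8 minor members in 24 of 24 libraries, and ssc-miR-424-3p in 23 of 24. The library that broke the order was that of minipig 1 at 17d, where ssc-miR-424-3p had 7 counts. Between these 2 abundant members the order was not fixed, with ssc-miR-424-3p the higher in 15 of 24 libraries.

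On the log2 scale the mean level and its SD over 24 libraries were 11.34 ± 0.91 for ssc-miR-424-3p and 11.34 ± 0.69 for ssc-miR-503. Then came ssc-miR-542-5p at 7.49 ± 0.75 and ssc-miR-450c-3p at 6.98 ± 1.15. ssc-miR-450a stood at 6.92 ± 0.62, ssc-miR-450c-5p at 6.88 ± 0.54 and ssc-miR-542-3p at 6.83 ± 0.90. The lowest were ssc-miR-450b-3p at 6.37 ± 0.80, ssc-miR-450b-5p at 6.18 ± 0.59 and ssc-miR-424-5p at 6.10 ± 0.82. The step from ssc-miR-503 down to ssc-miR-542-5p exceeded the SD of both, whereas every other pair of neighbours in this order differed by less than either SD. The minor members had median counts of 11.5 to 30.0 per library, so counting error enters their spread.

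**Figure D1:**
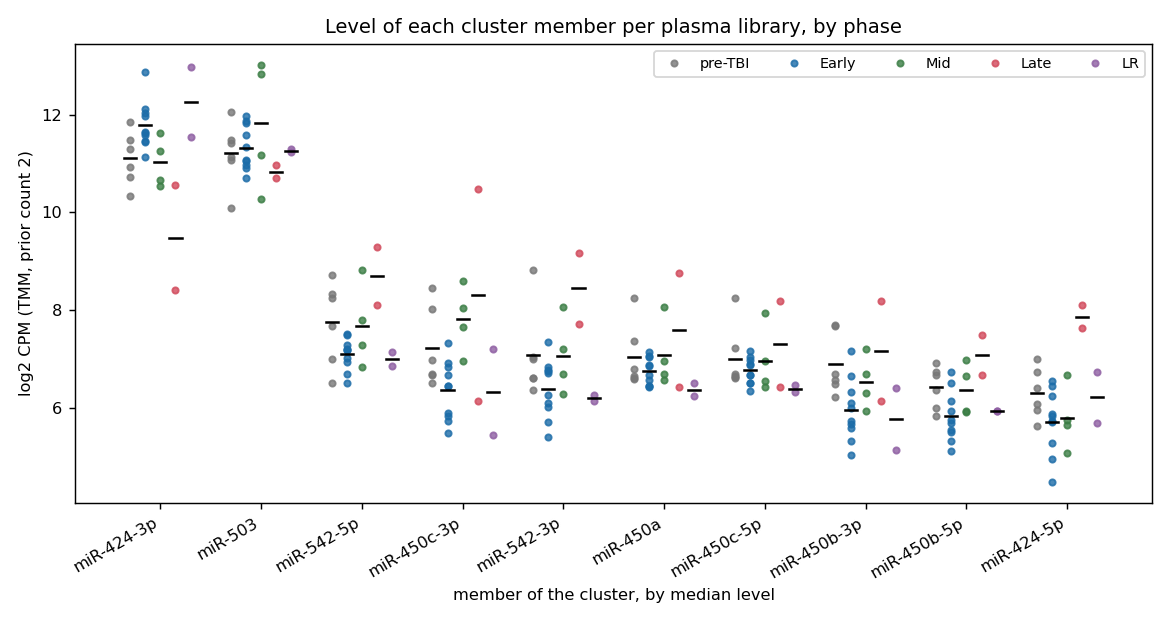
Level of each of the 10 members in each of the 24 plasma libraries (y axis, log2 CPM with a prior count of 2), ordered by median level along the x axis; each point is 1 library, colours are the phases and the black bars are phase means. ssc-miR-424-3p and ssc-miR-503 sit apart from the 8 minor members, and the Late points of several members (2 libraries) lie far from each other.

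The rows ssc-miR-450a and ssc-miR-450c-5p did not hold separate measurements. Their totals were 628 and 625 counts, the counts were identical in 6 of 24 libraries and never more than 4 apart, and a chi-square test over the libraries gave 0.0708 per degree of freedom, beside 1.11 or more for every other pair of members. They differed by less than counting noise and are 1 measurement with 2 names, whose level cannot be assigned to either hairpin. The tallies over 10 members below keep both rows, as the table does, and thus hold this measurement under both names.

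The members scaled with library depth in opposite ways. A count that grows in proportion to the library total has a slope of 1 when its log2 (count + 1) is set against the log2 total, and the median slope over the 411 ssc-miRNAs was 1.05 (quartiles 0.816 and 1.23). ssc-miR-424-3p had a slope of 1.52, so it took a larger share of deeper libraries, and ssc-miR-503 had 1.11. The 8 minor members all fell under the lower quartile, from 0.443 for ssc-miR-450c-3p and 0.489 for ssc-miR-542-3p to 0.790 for ssc-miR-542-5p. These 8 rank 330 to 400 by mean level, and adding 1 lowers the slope of rows with few counts. They were not compared with other rows of similar level. Correlations of log2 CPM with the log2 total, a description over 24 libraries of 3 animals, were 0.71 for ssc-miR-424-3p, 0.12 for ssc-miR-503 and -0.78 for ssc-miR-542-3p. Depth differed between the phases.

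**Figure D2:**
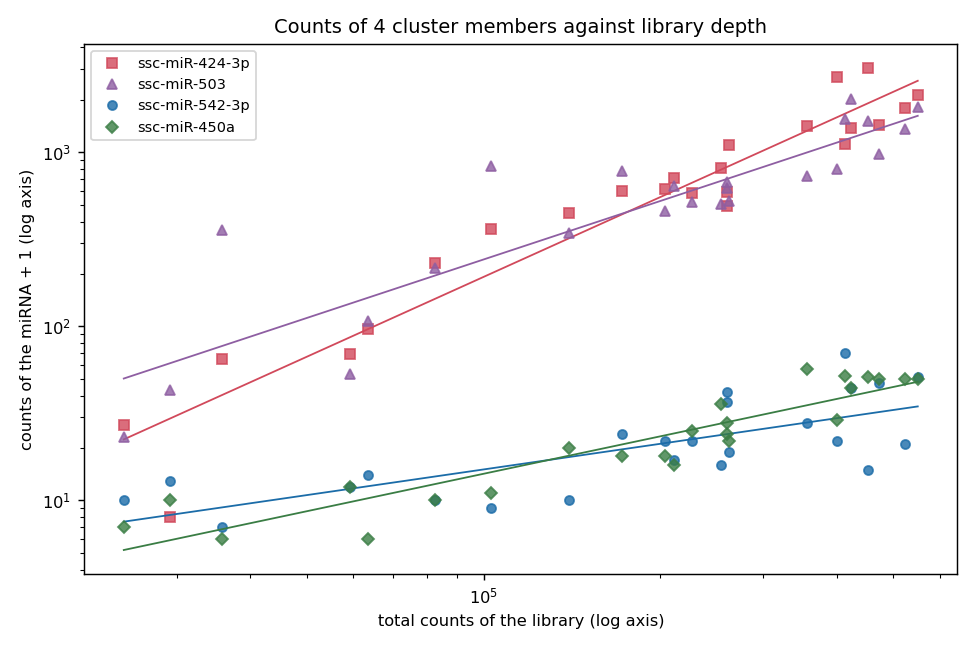
Counts of 4 members plus 1 (y axis, log scale) against the total count of the library (x axis, log scale), with 1 point per library (24 libraries) and a least-squares line per member. ssc-miR-424-3p climbs more steeply than ssc-miR-503, and ssc-miR-542-3p and ssc-miR-450a climb less than in proportion to depth.

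Whether any member varied over time was first asked without the phases, which the study drew from these same libraries. In edgeR's quasi-likelihood F test over pre-TBI and the 8 later time points, 5 of 10 members had an unadjusted p under 0.05, where 25.8% of all ssc-miRNAs had one. They were ssc-miR-424-3p (edgeR adjusted p = 0.0831), ssc-miR-542-5p (0.123), ssc-miR-542-3p (0.132), ssc-miR-450c-3p (0.133) and ssc-miR-424-5p (0.180). After Benjamini-Hochberg adjustment over 411 ssc-miRNAs, edgeR called 0 of the 10 members, beside 6.81% of all. DESeq2 called 5 of the 10 and 132 of the 411. These tests treat the draws of 1 animal as separate samples, so their p-values measure the spread between draws of 3 animals. In plasma, fewer cells that release a miRNA and less release per cell cannot be told apart.

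**Figure D3:**
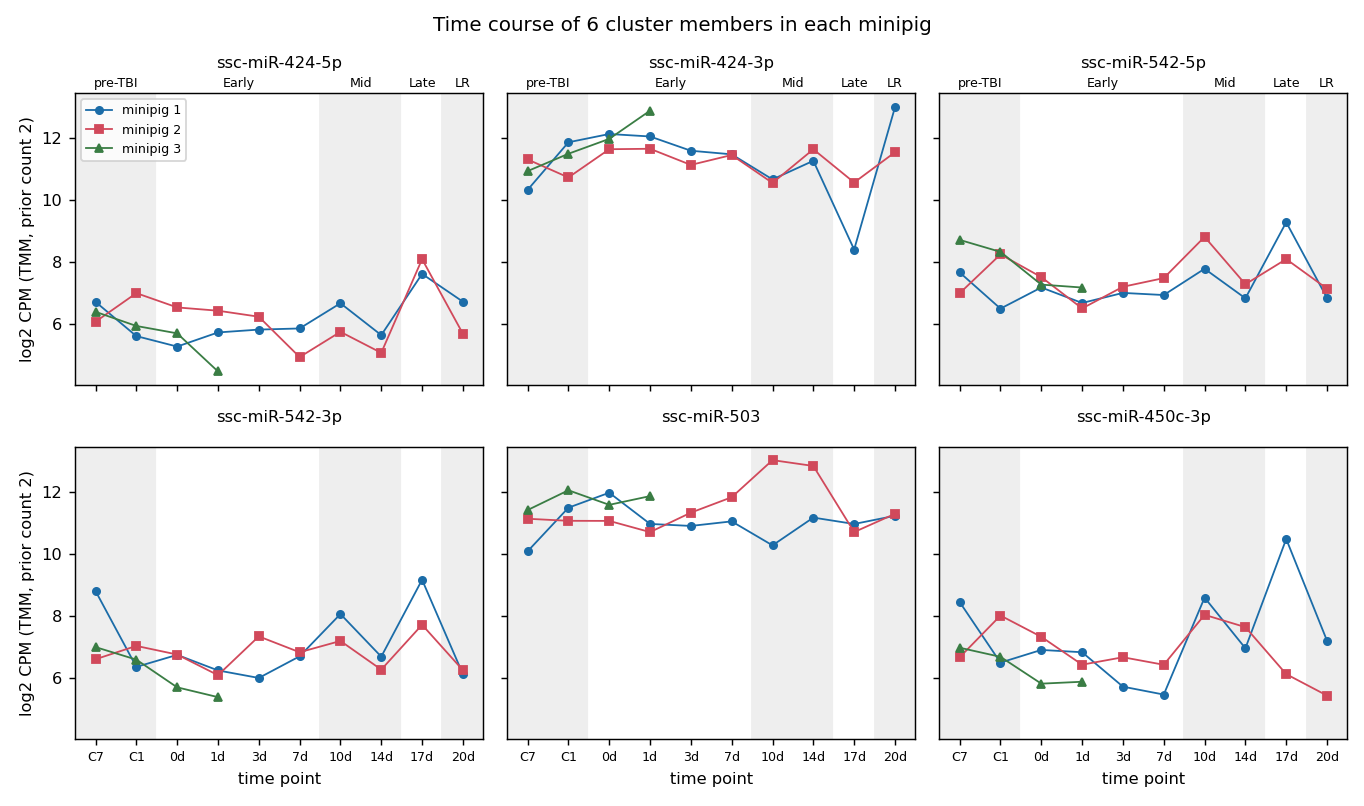
Time course of 6 members in each minipig (x axis, time point; y axis, log2 CPM with a prior count of 2; 1 line per animal, shaded bands mark the phases). The Late libraries of minipigs 1 and 2 have the highest ssc-miR-424-5p of the series, while ssc-miR-503 is high at 10d and 14d in minipig 2 only.

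At Early, within the first week after TBI, the minor members were mostly lower than before TBI and ssc-miR-424-3p was higher, but none passed the adjusted test. ssc-miR-424-3p ranged from 1278 to 3706 CPM (median 2237) in the 6 pre-TBI libraries and from 2235 to 7506 CPM (median 3191) in the 10 Early libraries. The ranges overlapped, and the highest value came from minipig 3 at 1d. Its log2 fold change was 0.68 (SE 0.32, edgeR quasi-likelihood adjusted p = 0.261), and the mean of Early lay above the animal's own pre-TBI mean in minipig 1 (by 0.71), minipig 2 (by 0.45) and minipig 3 (by 1.21).

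ssc-miR-542-5p, the more abundant arm of its hairpin, ranged from 83.5 to 414 CPM (median 247) before TBI and from 83.9 to 176 CPM (median 138) at Early. Every Early library lay under the pre-TBI median, though within the pre-TBI range. Its log2 fold change was -0.89 (SE 0.30, edgeR adjusted p = 0.107), with adjusted p-values of 0.0397 (DESeq2) to 0.666 over its alternatives, and the difference was mostly that of minipig 3, since without that animal it was -0.44. ssc-miR-450b-3p ranged from 66.8 to 201 CPM (median 92.1) before TBI and from 25.2 to 135 CPM (median 51.2) at Early, with a log2 fold change of -0.90 (SE 0.36, edgeR adjusted p = 0.190) and lower means than pre-TBI in all 3 animals. The other 7 members had log2 fold changes between -0.84 and 0.06, 6 of them negative.

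In all, 3 of 10 members had an unadjusted p under 0.05 at Early, 1 higher and 2 lower, where 18.7% of all ssc-miRNAs had one. With an adjusted p under 0.05, edgeR called 0 members and 0% of all ssc-miRNAs (77 of 411 by unadjusted p, and 33 by DESeq2 after adjustment). The median log2 fold change of the members was -0.55, beside 0.02 over all ssc-miRNAs. With the minipig as a block in the fit, 6 of 10 members and 92 of all 411 had an unadjusted p under 0.05, among these members ssc-miR-450b-5p, ssc-miR-450c-3p and ssc-miR-542-3p on the lower side, and again 0 passed after adjustment. The pre-TBI and Early libraries had median totals of 243304 and 261501 counts. The hepatocyte marker ssc-miR-122 had a median of 919 CPM before TBI and 524 CPM at Early, lower by unadjusted p. By the same measure 1 platelet row was higher, and of the muscle rows 1 was higher and 1 lower. The part of these markers in the Early differences was not tested.

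At Mid, only ssc-miR-503 stood out, and it did so in 1 animal. In minipig 2 it measured 8307 CPM at 10d and 7291 CPM at 14d, the highest values of the series, while minipig 1 had 1236 and 2302 CPM at the same times. Pre-TBI libraries ranged from 1081 to 4238 CPM (median 2483), so minipig 2 lay above all of them and minipig 1 within them. The log2 fold change was 0.90 (SE 0.41, edgeR quasi-likelihood adjusted p = 0.808), and without minipig 2 it turned to -0.60. ssc-miR-424-3p, from the same primary transcript and similarly abundant, measured 1493 and 3171 CPM in minipig 2 at these times, within its pre-TBI range.

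The other 9 members had log2 fold changes from -0.63 to 0.64 at Mid. By unadjusted p, 1 of 10 members was called, beside 5.35% of all ssc-miRNAs, and by adjusted p edgeR and DESeq2 called 0 members and 0% of all (22 of 411 by edgeR's unadjusted p). The median of the members was -0.00, beside 0.05 over all ssc-miRNAs. The Mid libraries were shallower than most pre-TBI libraries (35762 to 103083 counts). The summed platelet markers had a median of 6819 CPM at Mid against 13854 CPM before TBI, and the 2 arms of the haematopoietic marker ssc-miR-142 summed to 260 against 665 CPM, 1 arm being lower by unadjusted p. By unadjusted p, 1 erythrocyte row was lower too, and 0 platelet rows were called. The part of these markers in the Mid values was not tested.

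At Late, 17 days after TBI, ssc-miR-424-5p was higher and ssc-miR-424-3p lower than before TBI, so that the 2 arms of 1 hairpin differed in opposite directions, but no member passed the adjusted test against pre-TBI. ssc-miR-424-5p measured 190.0 CPM in minipig 1 and 267 CPM in minipig 2, above the pre-TBI range of 41.7 to 121 CPM (median 68.8) and above each of the other 22 libraries. These levels rest on 4 and 17 counts. The log2 fold change was 1.68 (SE 0.56, edgeR quasi-likelihood adjusted p = 0.0881), and the difference from the animal's own pre-TBI mean was 1.45 in minipig 1 and 1.55 in minipig 2.

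ssc-miR-424-3p measured 332 CPM in minipig 1 and 1508 CPM in minipig 2 at Late. The first lay under every other library of the series and the second within the pre-TBI range. Its log2 fold change was -1.30 (SE 0.55, edgeR adjusted p = 0.176), and it differed from the animal's own pre-TBI mean by -2.68 in minipig 1 and by -0.45 in minipig 2. Without minipig 2 it was -3.18, and without minipig 1 it was -0.62.

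ssc-miR-542-3p measured 569.9 and 204 CPM at Late against 75.1 to 442 CPM (median 106) before TBI. Both animals were above their own pre-TBI mean, by 1.58 and 0.89, with a log2 fold change of 1.52 (SE 0.61, edgeR adjusted p = 0.158), although the pre-TBI maximum, minipig 1 at C7, overlapped the phase. ssc-miR-450c-3p went in opposite directions in the 2 animals, with 1425 CPM in minipig 1 and 62.8 CPM in minipig 2, against 83.5 to 344 CPM (median 108) before TBI. Its log2 fold change of 2.19 (SE 0.74, edgeR adjusted p = 0.0941, and 0.0127 to 0.911 over its alternatives) came from minipig 1, and without that animal it was -1.21.

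The other 6 members had log2 fold changes from -0.49 to 0.89 at Late. By unadjusted p, 4 of 10 members were called, 3 higher and 1 lower, beside 22.6% of all ssc-miRNAs, and by adjusted p edgeR called 0, beside 4.38% of all. DESeq2 called 1 member and 27 of all 411 after adjustment. The median of the members was 0.80, beside 0.08 over all ssc-miRNAs. With the minipig as a block, 2 members and 79 of all 411 kept an unadjusted p under 0.05, the members being ssc-miR-424-5p (1.44) and ssc-miR-450c-3p (1.72). The summed platelet markers had their lowest median in this phase, and the libraries were shallow. By unadjusted p, 1 platelet row and 1 erythrocyte row were lower. The part of these markers in the Late differences was not tested.

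At LR, 20 days after TBI, neither animal kept the Late values of the miR-424 arms. ssc-miR-424-3p measured 8090 CPM in minipig 1, the highest value of the series, and 2967 CPM in minipig 2, which lay within the pre-TBI range. Its log2 fold change was 1.24 (SE 0.47, edgeR quasi-likelihood adjusted p = 0.558). ssc-miR-424-5p was back at 98.7 and 44.4 CPM, within its pre-TBI range. The other 9 members all had negative log2 fold changes, from -1.15 to -0.07, none with an unadjusted p under 0.05.

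By unadjusted p, 1 of 10 members was called at LR, beside 5.60% of all ssc-miRNAs, and by adjusted p edgeR and DESeq2 called 0 members and 0% of all (23 of 411 by edgeR's unadjusted p). With the minipig as a block, 2 members had an unadjusted p under 0.05, ssc-miR-424-3p (1.36) and ssc-miR-542-3p (-1.21), beside 49 of all 411. The median of the members was -0.59, beside -0.01 over all ssc-miRNAs. These were the deepest libraries of the series by median total. The hepatocyte marker ssc-miR-122 was lower in them by unadjusted p (median 355 CPM, against 919 CPM before TBI). By the same measure 1 muscle row was lower and 1 platelet row higher. The summed platelet markers had a median of 8597 CPM, against 13854 CPM before TBI. The part of these markers in the LR values was not tested.

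Most calls by the adjusted test came from Late against Early. Late was called higher for ssc-miR-424-5p, ssc-miR-450b-5p, ssc-miR-450c-3p, ssc-miR-542-5p and ssc-miR-542-3p and lower for ssc-miR-424-3p. These are 6 of 10 members, where 31.9% of all ssc-miRNAs passed (by unadjusted p, 6 of 10 beside 46.5%). The rise of ssc-miR-450c-3p was that of minipig 1 alone. The median log2 difference was 1.33 over the members and 0.17 over all ssc-miRNAs. The 2 phases were compared directly, since both share the same pre-TBI libraries in the comparisons above. The study set its phases ad hoc from how these same libraries separated by their miRNA levels, with Late furthest from the baseline and Early libraries. Late and Early were thus partly chosen for the differences tested here, and their p-values are not independent evidence that they differ. The same limit holds for Late against Mid and LR against Late below. Without the phases, edgeR's adjusted test over time called 0 of 10 members.

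ssc-miR-424-5p, at 190.0 and 267 CPM at Late, lay above the whole Early range of 14.8 to 85.9 CPM (median 47.7). It rose by 2.22 on the log2 scale (SE 0.53, edgeR quasi-likelihood adjusted p = 0.00532), a 4.67-fold difference. ssc-miR-424-3p, at 332 and 1508 CPM, lay under the whole Early range of 2235 to 7506 CPM, and its log2 difference was -1.97 (SE 0.56, edgeR adjusted p = 0.0124). The 2 strands of the miR-424 hairpin thus changed in opposite directions with no overlap between the phases.

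Both strands of miR-542 rose. ssc-miR-542-3p, at 569.9 and 204 CPM at Late, lay above the Early range of 34.5 to 156 CPM, with a log2 difference of 2.11 (SE 0.57, edgeR adjusted p = 0.00983). ssc-miR-542-5p, at 617 and 267 CPM, lay above the Early range of 83.9 to 176 CPM, with a log2 difference of 1.64 (SE 0.49, edgeR adjusted p = 0.0163). The groups were apart for both strands, and minipig 1 had the higher Late value each time.

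Of the miR-450 rows, ssc-miR-450b-5p measured 95.0 and 173 CPM at Late against 26.9 to 98.8 CPM at Early, a log2 difference of 1.44 (SE 0.50, edgeR adjusted p = 0.0332), and the ranges touched. ssc-miR-450c-3p had a log2 difference of 3.03 (SE 0.68, edgeR adjusted p = 0.00345), with 1425 CPM in minipig 1 above the Early range of 37.0 to 154 CPM. The 62.8 CPM of minipig 2, from 4 counts, lay within that range but under each of its own Early libraries (79.2 to 154 CPM). The remaining 4 members, ssc-miR-503 among them, had log2 differences from -0.56 to 1.22 that did not pass.

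These calls changed when the log2 total was in the fit and when 1 animal was left out. All 10 Early libraries were deeper than both Late libraries. The 5 members called higher at Late have slopes under 1 on depth, as do the 3 minor members that did not pass. The member that fell has the steepest slope. The slopes were fitted over libraries that include these Early and Late ones, so they are not separate evidence on the part of depth. With the log2 total as a covariate, an alternative chosen after the data had been seen, 0 of the 6 kept an adjusted p under 0.05 in edgeR (16 of all 411), and 2 kept an unadjusted one. In that fit the log2 difference was 2.30 for ssc-miR-424-5p (adjusted p = 0.123), -1.21 for ssc-miR-424-3p (adjusted p = 0.304) and 0.60 for ssc-miR-542-3p (adjusted p = 0.690). Over all alternatives the adjusted p of ssc-miR-424-5p reached at most 0.170 and that of ssc-miR-424-3p at most 0.352. With every library thinned to 24341 counts, 4 members passed (95 of all 411). Of the 6, no fold was computed there for ssc-miR-450b-5p and ssc-miR-542-3p, since a phase then had no library above 3 counts. Without minipig 1, 0 passed (25 of all 411) and ssc-miR-450c-3p turned to -0.39, while ssc-miR-424-5p had 2.34 (adjusted p = 0.107).

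Late and Mid, whose totals are closer to each other, were compared as well. Here ssc-miR-424-5p alone passed, with a log2 difference of 2.32 (SE 0.67, edgeR quasi-likelihood adjusted p = 0.0431), a 4.98-fold rise from Mid values of 95.1, 42.8, 46.7 and 26.4 CPM. The Late values lay above all 4, but the counts behind them are few, 2 to 4 at Mid and 4 and 17 at Late. The call is close to the threshold: the adjusted p ranged from 0.0290 to 0.428 over the 10 alternatives that gave a value. It was 0.0493 when the log2 total was a covariate, and 0 members passed with other scalings or with thinned counts. For ssc-miR-424-5p no fold was computed with thinned counts or without minipig 1, since a phase then had no library above 3 counts. Those settings therefore do not test its call. Without minipig 2 the difference was 1.27.

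By adjusted p this was 1 of 10 members, beside 4.62% of all ssc-miRNAs, and by unadjusted p 4 of 10, beside 17.5%. The others with an unadjusted p under 0.05 were ssc-miR-424-3p at -1.20 (SE 0.57), ssc-miR-503 at -1.39 (SE 0.60) and ssc-miR-542-3p at 1.43 (SE 0.67), with edgeR adjusted p-values of 0.278, 0.258 and 0.272. The difference of ssc-miR-503 was that of minipig 2, whose Mid values were the high ones, and was -0.17 without it.

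**Figure D4:**
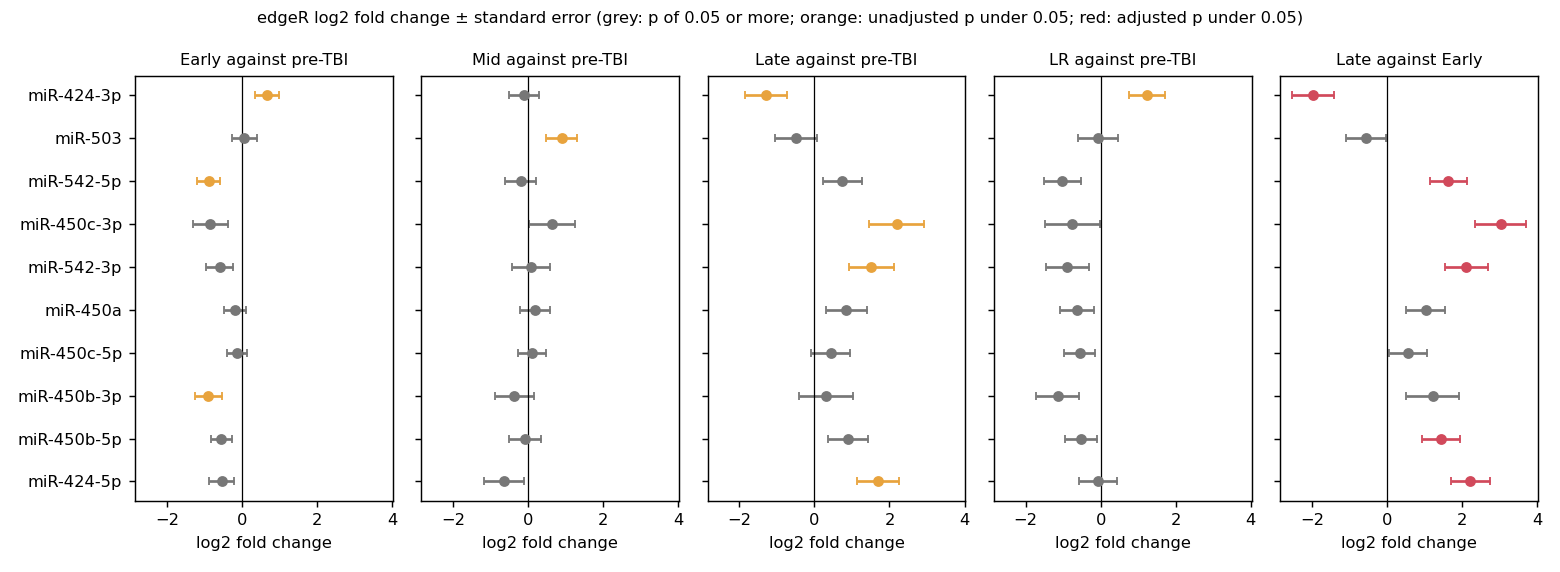
edgeR log2 fold change with its standard error (x axis) of each member (y axis, by median level) in 5 comparisons over 24 libraries; grey points have an unadjusted p of 0.05 or more, orange points one under 0.05 and red points an adjusted p under 0.05. Red points appear in the comparison of Late with Early, where ssc-miR-424-3p lies on the left of 0 and 5 minor members on the right.

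LR was set against Late as well, a comparison that shares its Late libraries with those above. ssc-miR-424-3p was higher at LR and most minor members were lower, but none passed edgeR's adjusted test. ssc-miR-424-3p measured 8090 and 2967 CPM at LR against 332 and 1508 CPM at Late, higher in both animals and with no overlap. Its log2 difference was 2.53 (SE 0.66, edgeR quasi-likelihood adjusted p = 0.0537, and 0.00409 to 0.684 over its alternatives). ssc-miR-542-3p measured 62.8 and 69.3 CPM at LR against 569.9 and 204 CPM at Late, lower in both animals, a log2 difference of -2.41 (SE 0.74, edgeR adjusted p = 0.0812). ssc-miR-542-5p, at 108 and 134 CPM at LR against 617 and 267 CPM, and ssc-miR-424-5p, at 98.7 and 44.4 CPM against 190.0 and 267 CPM, were also lower without overlap, with log2 differences of -1.77 and -1.76.

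Of the miR-450 rows, ssc-miR-450c-3p had a log2 difference between LR and Late of -2.95 (SE 0.94, edgeR adjusted p = 0.0895), and it was -0.73 without minipig 1. ssc-miR-450b-5p had a log2 difference of -1.42. The measurement shared by ssc-miR-450a and ssc-miR-450c-5p fell on both sides of the threshold, with -1.48 (unadjusted p = 0.0273 in edgeR) under the first name and -1.00 (unadjusted p = 0.110 in edgeR) under the second, so 1 of the calls counted next rests on which row is read. By unadjusted p, 7 of 10 members were called, 1 higher and 6 lower, beside 32.1% of all ssc-miRNAs, and by adjusted p edgeR called 0, beside 0.730% of all. DESeq2 called 4 members after adjustment (ssc-miR-424-3p, ssc-miR-450c-3p and both strands of miR-542) and 64 of all 411. With the minipig as a block edgeR called 2 members (ssc-miR-424-3p and ssc-miR-542-3p) and 23 of all 411. The LR libraries held 401408 and 550316 counts and the Late libraries 29159 and 63441, and with the log2 total as a covariate 2 members kept an unadjusted p under 0.05 (29 of all 411). Without minipig 1 only ssc-miR-424-5p kept one, with a log2 difference of -2.52.

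The remaining pairs of phases gave few differences. Between Mid and Early, ssc-miR-450c-3p (log2 difference 1.48, SE 0.55, edgeR adjusted p = 0.104) and ssc-miR-503 (0.84, SE 0.37, edgeR adjusted p = 0.174) had an unadjusted p under 0.05, which is 2 of 10 members beside 23.1% of all ssc-miRNAs, and edgeR called 0 members and 0% of all after adjustment, where DESeq2 called ssc-miR-450c-3p and 42 of all 411. That row measured 380 and 118 CPM in minipig 1 and 257 and 193 CPM in minipig 2 at Mid, against 37.0 to 154 CPM at Early. The difference of ssc-miR-503 was again that of minipig 2, and was -0.54 without it. The Mid libraries (35762 to 103083 counts) were shallower than all Early and LR libraries. Between LR and Mid, ssc-miR-424-3p alone had an unadjusted p under 0.05 (log2 difference 1.33, SE 0.51, edgeR adjusted p = 0.593), 1 of 10 members beside 6.08% of all. By adjusted p edgeR and DESeq2 called 0 members between LR and Mid, and edgeR 0% of all ssc-miRNAs. Between LR and Early, 0 members had an unadjusted p under 0.05, by edgeR and by DESeq2, beside 2.68% of all, and edgeR's adjusted test called 0.243% of all. Their log2 differences lay between -0.45 and 0.56.

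The balance of the 2 arms of a hairpin needs no scaling factor, because both arms are read from the same library, but it was not free of depth. It was taken as log2 of the 5p count plus 1 over the 3p count plus 1, and compared with a two-sided exact permutation test in which labels of time were exchanged among the libraries of a minipig, and with Benjamini-Hochberg adjustment over the 8 tests of miR-424 and miR-542. For miR-424 it was -4.79 ± 1.16 (SD, n = 6) before TBI, from -6.21 to -3.17, which means that the 3p arm was the higher in every library. At Early it was -6.21 ± 1.11 (SD, n = 10), a difference of -1.42 (exact permutation p = 0.0289, adjusted p = 0.231). Over the 24 libraries the miR-424 balance correlated with the log2 total at -0.65, a description of libraries from 3 animals, so the 5p arm held more of the pair in shallow libraries.

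At Late the miR-424 balance was -0.68 in minipig 1, from 4 counts of the 5p and 7 of the 3p arm, and -2.43 in minipig 2, from 17 and 96 counts. Both lay above every pre-TBI library and above every other library of the series. These libraries held 29159 and 63441 counts. Of similar totals were minipig 1 at C7 (24341 counts) with a balance of -3.17, minipig 2 at 10d (35762 counts) with -4.44 and minipig 1 at 10d (59291 counts) with -3.79. The part of depth in the Late balance was not tested. Against the 4 pre-TBI libraries of these 2 animals (-4.61 ± 1.39, SD) the difference was 3.06, with an exact permutation p of 0.222 (adjusted p = 0.593), and 2 animals with 1 Late library each cannot reach a p under 0.111 here. At LR the balance was -6.31 and -6.02, in each animal under both of its own pre-TBI values. The difference from pre-TBI was -1.56 at LR (exact permutation p = 0.222) and -0.45 at Mid (exact permutation p = 0.722). The 3p arm was 31.9 times the 5p arm in the median pre-TBI library, 71.3 times at Early and 3.49 times at Late.

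The balance of miR-542 ranged from -1.00 to 1.93, with the 5p arm the higher in 21 of 24 libraries, and it correlated with the log2 total at 0.57. The 6 pre-TBI libraries had a mean of 0.72 (SD 1.09) and the 10 Early libraries one of 0.75 (SD 0.64), a difference of 0.03 (exact permutation p = 0.935). For the later phases the baseline was the 4 pre-TBI libraries of minipigs 1 and 2, whose mean was 0.19 (SD 0.92). The balance differed from it by 0.40 in the Mid libraries, 0.04 in the Late and 0.65 in the LR libraries (exact permutation p = 0.389, 1 and 0.444). Against all 6 pre-TBI libraries, an alternative chosen after the data had been seen, the signs turned at Mid (-0.12) and Late (-0.48). The 4 libraries of minipig 3 measured 1.67 to 1.93 and those of the other animals at most 1.51. These 4 end at 1d and held 413030 to 524084 counts, so animal, time and depth cannot be told apart here.

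**Figure D5:**
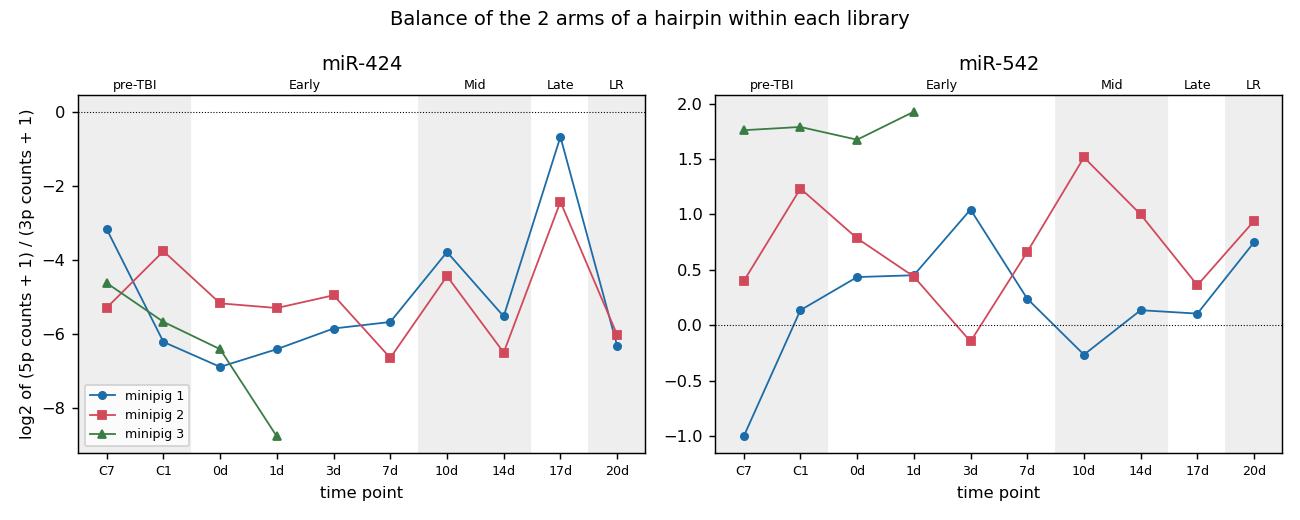
Balance of the 5p and 3p arms of miR-424 (left) and miR-542 (right) in each library (y axis, log2 of the 5p count + 1 over the 3p count + 1) by time point (x axis), 1 line per minipig, with the phases shaded; the 2 panels have different y scales. The miR-424 line of both animals with a Late library peaks at 17d, at -0.68 and -2.43, and lies near -6 at 20d.

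The members did not all vary together. Over the 24 libraries, which share 3 animals and a wide range of depth, Pearson's r of log2 CPM between ssc-miR-424-3p and ssc-miR-503 was 0.25, and between the 2 arms of miR-424 it was -0.62. The strongest inverse relation was that of ssc-miR-424-3p with ssc-miR-542-3p, at -0.88, and it was -0.73 with the log2 total taken out of both. Among the minor members, the 27 pairs other than the shared measurement had r from 0.31 to 0.78 (median 0.50), and from -0.01 to 0.70 (median 0.33) with the log2 total taken out. The pair ssc-miR-450b-3p and ssc-miR-450c-3p kept 0.68 of 0.78, whereas ssc-miR-450a with ssc-miR-450b-5p went from 0.33 to -0.01. All these values are descriptions of the same libraries, and shared depth enters each.

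The ssc-miRNAs outside the cluster with the most similar pattern were different for nearly every member. For ssc-miR-424-3p they were ssc-miR-139-3p (r = 0.96 over 24 libraries) and ssc-miR-615 (0.95), and for ssc-miR-424-5p they were ssc-miR-2411 (0.81) and ssc-miR-1839-5p (0.78). ssc-miR-503 was closest to ssc-miR-361-5p (0.87) and ssc-miR-9858-5p (0.76). ssc-miR-542-3p was closest to ssc-miR-335 (0.94) and ssc-miR-9832-3p (0.87), and ssc-miR-542-5p to ssc-miR-9852-3p (0.91) and ssc-miR-208b (0.89).

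Among the miR-450 rows, ssc-miR-450c-3p was closest to ssc-miR-146a-3p (0.92) and ssc-miR-376a-3p (0.88). ssc-miR-450b-3p was closest to ssc-miR-9787-3p (0.78) and ssc-miR-9844-3p (0.77), and ssc-miR-450b-5p to ssc-miR-130b (0.74) and ssc-miR-9843-3p (0.69). The shared measurement of ssc-miR-450a and ssc-miR-450c-5p was closest to ssc-miR-9835-3p (0.89 and 0.85) and ssc-miR-328 (0.86 and 0.83).

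The other miRNAs of the miR-16 seed group were set beside the cluster, since miR-424-5p carries the same seed. The 5 rows ssc-miR-15a, ssc-miR-15b, ssc-miR-16, ssc-miR-195 and ssc-miR-497 come from other hairpins. ssc-miR-16, a miRNA rich in red cells, was the most abundant with 26486 counts, against 389 of ssc-miR-424-5p. Against pre-TBI, 1 of the 5 had an unadjusted p under 0.05 at Early (ssc-miR-195, -0.62; 18.7% of all ssc-miRNAs), 1 at Mid (ssc-miR-16, -2.23; 5.35% of all), 1 at Late (ssc-miR-15b, 1.19; 22.6% of all) and 0 at LR (5.60% of all), and edgeR's adjusted test called 0 of 5 in each phase. Between Late and Early, 4 of 5 had an unadjusted p under 0.05 beside 46.5% of all, 3 higher and 1 lower, and 0 passed after adjustment beside 31.9% of all, with a smallest adjusted p of 0.0517. Between Late and Mid, ssc-miR-15a (1.91, edgeR adjusted p = 0.0922) and ssc-miR-15b (1.45, edgeR adjusted p = 0.117) had an unadjusted p under 0.05, 2 of 5 beside 17.5% of all. In LR against Late it was ssc-miR-15b (-1.71) and in Mid against Early ssc-miR-16 (-2.58), 1 of 5 each time, beside 32.1% and 23.1% of all, and LR against Early and LR against Mid had 0 of 5. Their medians were 0.97 for Late against Early and 0.68 for Late against Mid, beside 1.33 and 0.82 for the cluster.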

How the data were processed

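The authors deposited raw counts (whole numbers, not normalized) for each ssc-miRNA in each library. Per the study's methods, 5 µL of plasma gave TruSeq small RNA libraries, whose reads were trimmed with Cutadapt, aligned with Bowtie (version 2.2.3.0 in the submitters' processing notes) to the ssc5 assembly and miRBase, and counted with miRDeep2, which can count 1 read for near-identical miRNAs. Its methods also state a filter on ssc-miRNAs of low counts (a CPM over 0.5 in a share of the samples), and all 411 deposited rows pass such a filter. PCR copies were not separated, so counts carry counting error at least.

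Libraries under 1000 counts were left out (6 of 30), a minimum set with their totals known. The members, lists and tests were chosen with earlier results of these data known. edgeR 4.0.16 in R 4.3.3 fitted all 411 ssc-miRNAs (the filter of a CPM over 0.5 in 3 or more libraries removed none) with TMM and 5 phases in 1 quasi-likelihood fit without a term for the animal. Calls used an adjusted p under 0.05 (Benjamini-Hochberg over 411), with the unadjusted p under 0.05 of the study's methods beside it. A standard error is the log2 fold change over the square root of F, and edgeR raises p for rows with less spread than Poisson counting. Arm balances were tested in Python 3.11.15 with scipy 1.17.1. DESeq2 1.42.0 was an alternative. The scripts were tested on simulated data.

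Same-numbered libraries come from the same minipig, so they are paired by design. Deviations from the phase means correlated by 0.169 on average over 78 pairs within a minipig and by -0.102 over 130 pairs between minipigs. Late and LR hold 2 libraries each, whose deviations from their mean mirror each other, so part of this contrast is built in. The average within a minipig was 0.248 in minipig 1, 0.0467 in minipig 2 and 0.564 in minipig 3. Every member is named, with the 2 most similar other ssc-miRNAs of each, and fold changes are given singly where the unadjusted p is under 0.05. The phases were taken by the study from these same libraries. Its methods name 3 pre-TBI time points, of which the labels give C7 and C1.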

Additional observations from a re-analysis of the deposited data

Results flagged for a closer look

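Of 30 groups of 4 to 10 libraries tested for a library far from the rest (10 members in 3 phases), 2 had one, where chance gives about 1 in 20. Both were the library of minipig 1 at C7, the shallowest kept (24341 counts), among the 6 pre-TBI libraries. ssc-miR-450c-5p measured 8.24 log2 CPM there and 7.22 in the next library, from 6 counts, and ssc-miR-542-3p measured 8.81 and 7.05 in the next, from 9 counts. This library raises the pre-TBI mean of both.

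Effects of 2 phases differed by edgeR's adjusted test in 7 cases. Over all ssc-miRNAs, 31.9% passed for Late minus Early and 4.62% for Late minus Mid. The study had set Late apart from these same libraries. Late minus Early was -1.97 for ssc-miR-424-3p, 2.22 for ssc-miR-424-5p, 1.44 for ssc-miR-450b-5p, 3.03 for ssc-miR-450c-3p, 2.11 for ssc-miR-542-3p and 1.64 for ssc-miR-542-5p on the log2 scale, and Late minus Mid was 2.32 for ssc-miR-424-5p. ssc-miR-424-5p is in both sets, and its 2 Late libraries rest on 4 and 17 counts.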

How the results depend on the processing

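Precision is limited by depth (2 to 44 counts of ssc-miR-424-5p per library), by 2 Late and 2 LR libraries from 2 animals, and by the loss of minipig 3 after 1d. Of 29 fold changes given singly, 25 kept their direction under every alternative that gave a value, and of the 71 others 24 did. A prior count of 0.5 moved 48 of 50 mean levels by less than 1 SD. For 86 values no fold was computed, since a group had no library above 3 counts.

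Against pre-TBI, edgeR's adjusted test called 0 members in each phase, and 1 at Early and 1 at Late with DESeq2, 1 at Early with the 2 groups alone in the fit, and 2 at Late without minipig 2. DESeq2 called 5 over the 9 time groups. Over all 411 ssc-miRNAs the unadjusted counts were 77 at Early, 22 at Mid, 93 at Late, 23 at LR and 106 over time. Under the alternatives these ranged from 35 to 112 at Early and from 64 to 178 over time. They fell to 11 at Mid with library size only, 38 at Late with C7 as the baseline and 13 at LR with C1. The unadjusted counts of members were 3 at Early, 1 at Mid, 4 at Late, 1 at LR and 5 over time. They became 1 at Early, 1 at Late, 0 at LR and 1 over time with thinned counts, where no fold was computed for ssc-miR-450b-3p at Early. With library size only they were 0 at Mid, 2 at LR and 3 over time, and RLE factors gave 2 and DESeq2 3 at LR. With the 2 groups alone they were 0 at Mid and 2 at Late, with C7 as the baseline 2 at Late and 2 at LR, and with C1 0 at Mid and 0 at LR. With the log2 total as a covariate they were 1 at Late and 1 over time.

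With the replicate block (the minipig as a term) the unadjusted counts were 6 at Early, 2 at Late and 2 at LR, and with thinned counts in the replicate block 0 at Late and 1 over time. By an adjusted p the block changed the calls for LR against Late, given below, and no other. Leaving out 1 minipig gave unadjusted counts of 2 to 4 at Early, 0 to 1 at Mid, 1 to 4 at Late, 2 each time at LR and 0 to 2 over time, and adjusted counts of 0 to 2 at Late. ssc-miR-503 at Mid then ranged from -0.60 (reversed, without minipig 2) to 1.42, and ssc-miR-450c-3p at Late from -1.21 (reversed, without minipig 1) to 3.20.

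Late against Early gave 6 adjusted calls, 0 with the log2 total as a covariate (2 unadjusted) and 0 to 6 without 1 minipig (2 to 7 unadjusted), where ssc-miR-450c-3p ranged from -0.39 (reversed, without minipig 1) to 4.19. Late against Mid gave 1 adjusted call, and 0 with RLE factors, library size only, thinned counts, the 2 groups alone and the block with thinned counts. For ssc-miR-424-5p, the member called, no fold was computed with thinned counts, in the block with thinned counts or without minipig 1. Its 4 unadjusted calls became 2 with thinned counts, 1 with the 2 groups alone, 2 with the covariate, 2 with the block and thinned counts, and 2 to 3 without 1 minipig. Where a fold was computed, the cause of these losses was not tested. Over all 411 ssc-miRNAs the unadjusted calls for Late against Mid went from 72 to 29 with the 2 groups alone.

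LR against Late gave 0 adjusted calls, 4 with DESeq2, 2 with the replicate block and 0 to 2 without 1 minipig. Its 7 unadjusted calls became 4 with the 2 groups alone, 2 with the covariate and 1 to 7 without 1 minipig (1 without minipig 1). Mid against Early gave 0 adjusted calls, 1 with DESeq2, 1 with the 2 groups alone and 0 to 1 without 1 minipig, and its 2 unadjusted calls became 4 with the 2 groups alone and 1 with the covariate. ssc-miR-503 in that comparison ranged from -0.54 (reversed, without minipig 2) to 1.504. Over all 411 ssc-miRNAs the unadjusted calls for Mid against Early went from 95 to 36 with the covariate and 125 with the 2 groups alone. Those for LR against Late went from 132 to 29 with the covariate and 145 with DESeq2. LR against Mid had 1 unadjusted call, 2 with DESeq2, 0 with the covariate and 1 to 3 without 1 minipig, and LR against Early had 0, and 0 to 1 without 1 minipig.

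Over all ssc-miRNAs, adjusted calls ranged from 0 to 38 at Early, 0 to 77 at Late, 0 to 6 at LR, 16 to 186 for Late against Early, 0 to 45 for Late against Mid, 0 to 66 for LR against Late, 0 to 6 for LR against Early, 0 to 5 for LR against Mid, 0 to 44 for Mid against Early and 0 to 132 over time. The arm balance of miR-424 without 1 minipig differed from pre-TBI by -1.75 to -1.25 at Early, -0.94 to 0.036 at Mid, 2.10 to 4.01 at Late and -1.62 to -1.49 at LR. That of miR-542 differed by -0.40 to 0.30 at Early, 0.37 to 0.44 at Mid, -0.45 to 0.54 at Late and 0.13 to 1.18 at LR, and with the pre-TBI libraries of all minipigs in the baseline by -0.12 at Mid and -0.48 at Late.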
